A study of Mus musculus with 12 samples.

Results

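The type 1 axis of T cells was examined in splenic regulatory T cells (Treg) of mice with allergic airways disease. It was taken as 10 genes: the transcription factors Tbx21 (T-bet), Eomes, Hlx and Runx3, the interleukin-12 (IL-12) receptor chains Il12rb1 and Il12rb2 with their signal transducer Stat4, the interleukin-18 (IL-18) receptor chains Il18r1 and Il18rap, and the chemokine receptor Cxcr3. They were found by their symbol in the probe annotation, and each had exactly 1 probe set, so that 10 of the 23521 probe sets with 1 symbol, or 10 of 22180 genes, were members. The set was chosen by the measured differences between iTreg and the other 2 groups, which were already known. Their values in those comparisons are therefore a description and carry no test, while e_iTreg minus eTreg was tested. That test uses the same e_iTreg and eTreg arrays that entered the choice, so it is not independent of the choice.

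IL-12 binds a receptor made of Il12rb1 and Il12rb2 and acts through Stat4, and IL-18 binds Il18r1, which recruits Il18rap and signals through Myd88. In conventional CD4+ T cells these signals act with T-bet, which drives interferon-gamma and Cxcr3, the receptor that guides type 1 cells to Cxcl9 and Cxcl10. Treg that express T-bet and Cxcr3 are known as a Treg subset that gathers at sites of type 1 inflammation.

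The mice were DEREG mice, whose Foxp3-driven transgene gives Foxp3+ cells a diphtheria toxin receptor joined to green fluorescent protein, and all had been sensitized to ovalbumin and then exposed to it. Diphtheria toxin (DTx) removes the cells that carry the transgene. The iTreg group (4 arrays) came from mice given DTx at 40 ng/g and then intravenous immunoglobulin (IVIg), pooled IgG, at 2 g/kg. The e_iTreg group (4 arrays) came from mice given IVIg at 2 g/kg without DTx and mixes endogenous and induced Treg by its label. The eTreg group (4 arrays) had HSA (human serum albumin) as the control protein at 2 g/kg, without DTx. This grouping follows the series design, whereas the growth protocol, worded alike for every sample, sets DTx before either protein. A group with DTx and HSA was not analysed here, so iTreg and eTreg differ in both IVIg and DTx, whereas iTreg and e_iTreg differ by design in DTx alone. Age and sorting gate are not given in the labels.

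Levels below are the authors' log2 values, differences are between group means on that log2 scale with SE or a 95% interval, and a call means an adjusted p under 0.05. All 12 arrays carried the T and Treg markers. The mean of Foxp3, Il2ra, Ctla4, Ikzf2 and Nrp1 was 11.20 to 11.27 in iTreg, 11.30 to 11.52 in e_iTreg and 11.32 to 11.52 in eTreg, and none of these 5 genes was called in any comparison. The mean of Cd3e, Cd3d and Cd4 was 11.40 to 11.62 over the 12 arrays. Array pairs correlated at 0.966 to 0.993. Of the arrays, 3 stood apart on sex-linked genes: the mean of the Y-linked genes was 4.84 in iTreg replicate 4 and 4.94 in eTreg replicate 3, and Xist was 5.82 in e_iTreg replicate 4. The other 9 arrays held both signals, with Xist at 10.26 to 11.25 and a Y-linked mean of 6.54 to 8.12. The B cell markers were lowest in e_iTreg replicate 4 (mean 6.44), eTreg replicate 3 (6.40) and eTreg replicate 4 (6.46), and 7.32 to 8.06 in the others. In iTreg replicate 4 the plasma cell and myeloid markers had means of 8.65 and 8.12, against 6.33 to 6.63 and 6.63 to 7.04 in the other iTreg arrays. In bulk RNA fewer cells of a type and less RNA per cell cannot be told apart.

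Of the 10 genes, 7 were higher in iTreg than in eTreg and 0 were lower at the call threshold, beside 5.36% of all probe sets called higher and 4.63% called lower. The same 7 were higher in iTreg than in e_iTreg (6.49% of all probe sets higher, 4.75% lower). They were Tbx21, Runx3, both IL-12 receptor chains, both IL-18 receptor chains and Cxcr3. Eomes, Hlx and Stat4 were the other three. For 6 of the 10 every iTreg array lay above all 8 other arrays, a pattern held by 5.08% of all probe sets, and Il18r1 was the called gene that overlapped. The median difference of the 10 genes was 0.89 against eTreg, beside -0.01 over all probe sets, and 0.88 against e_iTreg, beside -0.07. Both comparisons use the same iTreg arrays.

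**Figure D1:**
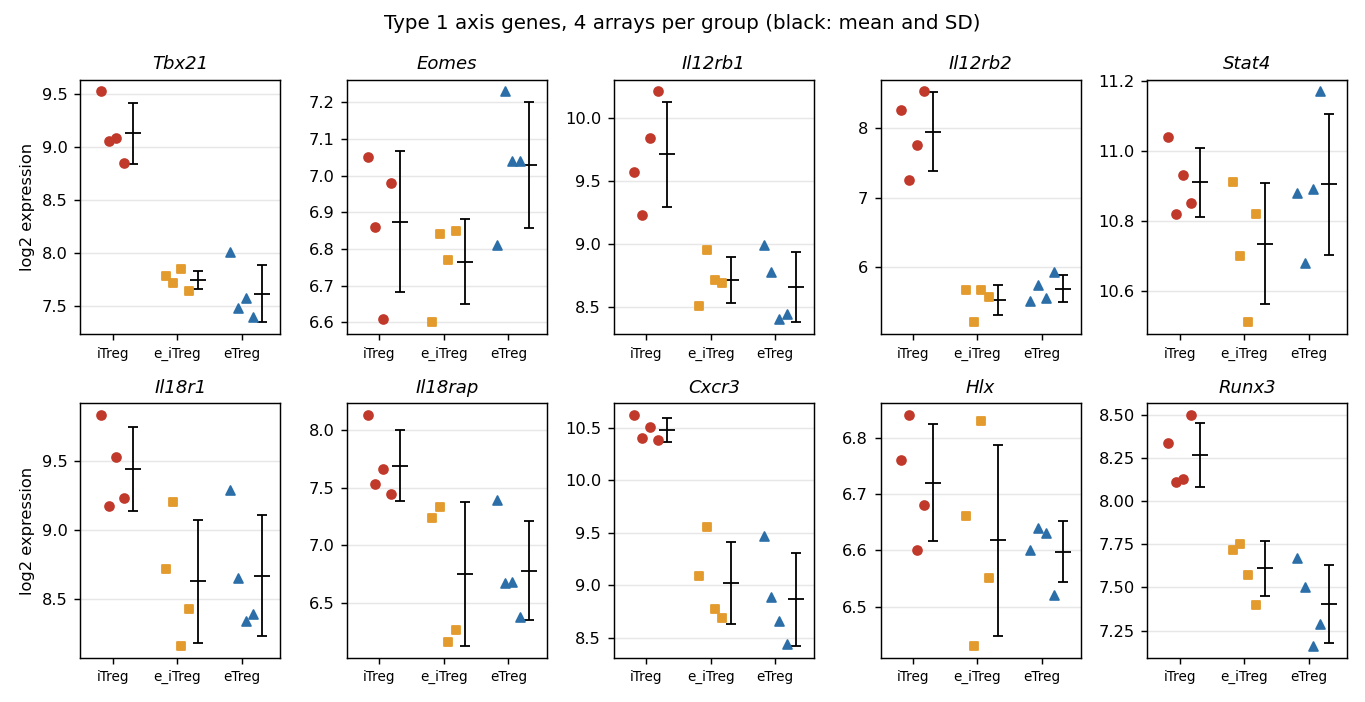
Log2 expression of the 10 genes in each array, with iTreg, e_iTreg and eTreg from left to right, 1 point per array and the mean and SD in black; each panel has its own scale. In Tbx21, Il12rb1, Il12rb2, Il18rap, Cxcr3 and Runx3 all 4 iTreg points lie above the other 8, while the groups overlap in Eomes, Stat4, Il18r1 and Hlx.

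Among the transcription factors, T-bet itself carried the largest difference. Tbx21, the T-box factor that directs type 1 differentiation, was at 9.53, 9.06, 9.09 and 8.85 in iTreg replicates 1 to 4, at 7.79, 7.72, 7.85 and 7.65 in e_iTreg and at 8.01, 7.49, 7.58 and 7.40 in eTreg. The lowest iTreg array lay 0.84 above the highest of the others, which was eTreg replicate 1. The difference was 1.51 ± 0.15 (2.85-fold) against eTreg and 1.38 ± 0.15 (2.6-fold) against e_iTreg. The means were 9.13 ± 0.29 in iTreg, 7.75 ± 0.09 in e_iTreg, the least spread group, and 7.62 ± 0.27 in eTreg (SD, n = 4 each).

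Runx3, the runt-domain factor that acts with T-bet at the interferon-gamma gene, followed with a smaller step. Its levels were 8.34, 8.11, 8.13 and 8.50 in iTreg, 7.72, 7.75, 7.57 and 7.40 in e_iTreg and 7.67, 7.5, 7.16 and 7.29 in eTreg. No iTreg array reached down to the others. The difference was 0.87 ± 0.13 against eTreg and 0.66 ± 0.13 against e_iTreg, or 1.82-fold and 1.58-fold. The highest level was in iTreg replicate 4, the array with the high plasma cell and myeloid markers. Without that array the differences were 0.79 and 0.58 in the same order.

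Eomes, the T-box relative of T-bet that is best known from CD8+ T and natural killer (NK) cells, did not share this pattern. It was at 7.05, 6.86, 6.61 and 6.98 in iTreg, 6.60, 6.84, 6.77 and 6.85 in e_iTreg and 6.81, 7.23, 7.04 and 7.04 in eTreg. The groups overlapped, and the difference was -0.15 (95% interval -0.40 to 0.10) against eTreg and 0.11 (-0.14 to 0.36) against e_iTreg. Hlx, a homeobox factor that works with T-bet in type 1 cells, lay between 6.60 and 6.84 in iTreg, 6.43 and 6.83 in e_iTreg and 6.52 and 6.64 in eTreg. Its difference was 0.12 (-0.09 to 0.34) against eTreg and 0.10 (-0.11 to 0.32) against e_iTreg. Eomes and Hlx both lay near the array medians (6.43 to 6.67), toward the dim end of the scale, so differences in them may be understated.

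The 250 bases before each annotated start were searched on both strands for a T-box half-site (GGTGTG), a Runx site (TGTGGT) and a STAT palindrome (TTCNNNGAA), because T-bet, Runx3 and Stat4 are themselves members. Promoter sequences are from RefSeq on GRCm38.p6, and 9 of the 10 genes matched, with 13 windows, all but Il12rb1. The T-box half-site was in 1 member's windows (Il18r1), the Runx site in 2 members' (Cxcr3 and Runx3) and the STAT palindrome in 2 members' (Il12rb2 and Il18r1). Of all 32851 windows 16.3%, 14% and 7.02% held these motifs in that order. A match describes the letters in the window only. The window before one annotated start of Runx3 (chr4:135120395-135120644, plus strand) is shown because it holds the Runx site in 2 copies, at 134 to 129 and 126 to 121 bases before the start; capitals mark them, read on the opposite strand.

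Runx3: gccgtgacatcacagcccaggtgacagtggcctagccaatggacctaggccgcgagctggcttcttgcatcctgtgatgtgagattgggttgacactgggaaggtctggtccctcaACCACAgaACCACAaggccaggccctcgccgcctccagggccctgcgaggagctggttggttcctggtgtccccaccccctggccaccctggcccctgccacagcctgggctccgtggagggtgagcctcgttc

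The IL-12 receptor chain that decides IL-12 responsiveness, Il12rb2, had the largest difference of the 10 genes. It was at 8.26, 7.25, 7.76 and 8.53 in iTreg, 5.67, 5.21, 5.67 and 5.58 in e_iTreg and 5.52, 5.75, 5.56 and 5.94 in eTreg. All 8 arrays without depletion lay below 6, and iTreg replicate 2, the lowest of its group, was still at 7.25. The difference was 2.25 ± 0.22 (4.77-fold) against eTreg and 2.42 ± 0.22 (5.34-fold) against e_iTreg. The e_iTreg and eTreg levels lay below the median of every array (6.43 to 6.67), so the level there is close to the dim end of the scale and these folds may understate the difference. The spread within iTreg, 7.95 ± 0.56 (SD, n = 4), was wider than in e_iTreg (5.53 ± 0.22) and eTreg (5.69 ± 0.19). Its promoter window (chr6:67376189-67376438, minus strand) is printed because this gene leads the axis; the STAT palindrome, 123 to 115 bases before the start, is in capitals.

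Il12rb2: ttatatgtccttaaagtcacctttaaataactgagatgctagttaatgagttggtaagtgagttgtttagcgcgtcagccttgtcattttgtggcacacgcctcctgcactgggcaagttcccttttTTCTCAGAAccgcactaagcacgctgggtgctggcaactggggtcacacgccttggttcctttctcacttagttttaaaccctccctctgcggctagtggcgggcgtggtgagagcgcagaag

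Il12rb1, the chain shared by the IL-12 and IL-23 receptors, was at 9.57, 9.23, 9.84 and 10.21 in iTreg, 8.51, 8.95, 8.72 and 8.69 in e_iTreg and 8.99, 8.78, 8.41 and 8.45 in eTreg. The groups did not overlap, and the gap between the lowest iTreg and the highest eTreg array was 0.24. The difference was 1.06 ± 0.18 (2.08-fold) against eTreg and 0.99 ± 0.18 (1.99-fold) against e_iTreg. In both receptor chains iTreg replicate 4 was highest, the array with the high plasma cell and myeloid markers. Without it the difference from eTreg was 0.89 for Il12rb1 and 2.06 for Il12rb2.

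Stat4, which carries the signal of this receptor to the nucleus, was at 11.04, 10.82, 10.93 and 10.85 in iTreg, 10.91, 10.70, 10.51 and 10.82 in e_iTreg and 10.88, 10.68, 10.89 and 11.17 in eTreg. The highest array of all was an eTreg one. The difference was 0.01 (95% interval -0.24 to 0.26) against eTreg and 0.17 (-0.08 to 0.42) against e_iTreg.

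Both IL-18 receptor chains were higher in iTreg, with smaller differences than the IL-12 receptor chains. Il18r1, the ligand-binding chain, was at 9.83, 9.17, 9.53 and 9.23 in iTreg, 8.72, 9.20, 8.16 and 8.43 in e_iTreg and 9.29, 8.65, 8.34 and 8.39 in eTreg. Replicate 2 of e_iTreg and replicate 1 of eTreg reached into the iTreg range. The difference was 0.77 ± 0.23 (1.71-fold) against eTreg and 0.81 ± 0.23 (1.76-fold) against e_iTreg. One of its 3 windows (chr1:40465756-40466005, plus strand) is shown because it holds the STAT palindrome in 2 copies, in capitals, at 219 to 211 and 152 to 144 bases before the start; the T-box half-site was in another of its windows.

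Il18r1: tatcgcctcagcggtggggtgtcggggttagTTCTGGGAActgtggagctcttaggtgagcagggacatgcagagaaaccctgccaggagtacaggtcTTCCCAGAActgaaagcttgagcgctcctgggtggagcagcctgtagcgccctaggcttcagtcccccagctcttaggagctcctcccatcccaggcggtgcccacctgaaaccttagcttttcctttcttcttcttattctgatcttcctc

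Il18rap, the accessory chain needed for signalling, was at 8.13, 7.53, 7.66 and 7.44 in iTreg, 7.24, 7.33, 6.16 and 6.26 in e_iTreg and 7.39, 6.67, 6.68 and 6.38 in eTreg. The groups did not overlap, yet the lowest iTreg and the highest eTreg array were only 0.05 apart. The e_iTreg arrays fell into a higher and a lower pair, replicates 1 and 2 against 3 and 4. The difference was 0.91 ± 0.27 (1.88-fold) against eTreg and 0.94 ± 0.27 (1.92-fold) against e_iTreg. When each of the 12 arrays was left out in turn, the iTreg minus eTreg call was lost in 8 fits for Il18r1 (without eTreg replicate 2, 3 or 4, e_iTreg replicate 1 or 4, or iTreg replicate 1, 3 or 4) and in 7 for Il18rap (without eTreg replicate 2, 3 or 4 or any 1 iTreg array). Against e_iTreg it was lost in 5 fits for Il18r1 (e_iTreg replicate 1, 3 or 4, iTreg replicate 1 or 3) and in 4 for Il18rap (e_iTreg replicate 3 or 4, iTreg replicate 1 or 3). The other 5 called genes kept their call in all 12 fits of both comparisons.

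Cxcr3, the chemokine receptor that T-bet is known to drive, had the tightest iTreg values of the called genes. It was at 10.62, 10.40, 10.51 and 10.38 in iTreg, 9.09, 9.55, 8.77 and 8.69 in e_iTreg and 9.47, 8.89, 8.66 and 8.44 in eTreg. The iTreg arrays spanned 0.24, whereas the e_iTreg and eTreg arrays spanned 0.86 and 1.03. The difference was 1.61 ± 0.21 (3.06-fold) against eTreg and 1.45 ± 0.21 (2.74-fold) against e_iTreg. Its promoter window (chrX:101734148-101734397, minus strand) is shown as that of a textbook T-bet target; no T-box half-site was among its letters, and the capitals mark a Runx site on the opposite strand, 110 to 105 bases before the start.

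Cxcr3: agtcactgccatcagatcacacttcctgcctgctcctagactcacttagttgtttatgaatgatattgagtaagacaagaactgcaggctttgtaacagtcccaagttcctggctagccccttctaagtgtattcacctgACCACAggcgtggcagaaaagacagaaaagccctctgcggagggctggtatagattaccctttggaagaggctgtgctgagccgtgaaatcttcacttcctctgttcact

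**Figure D2:**
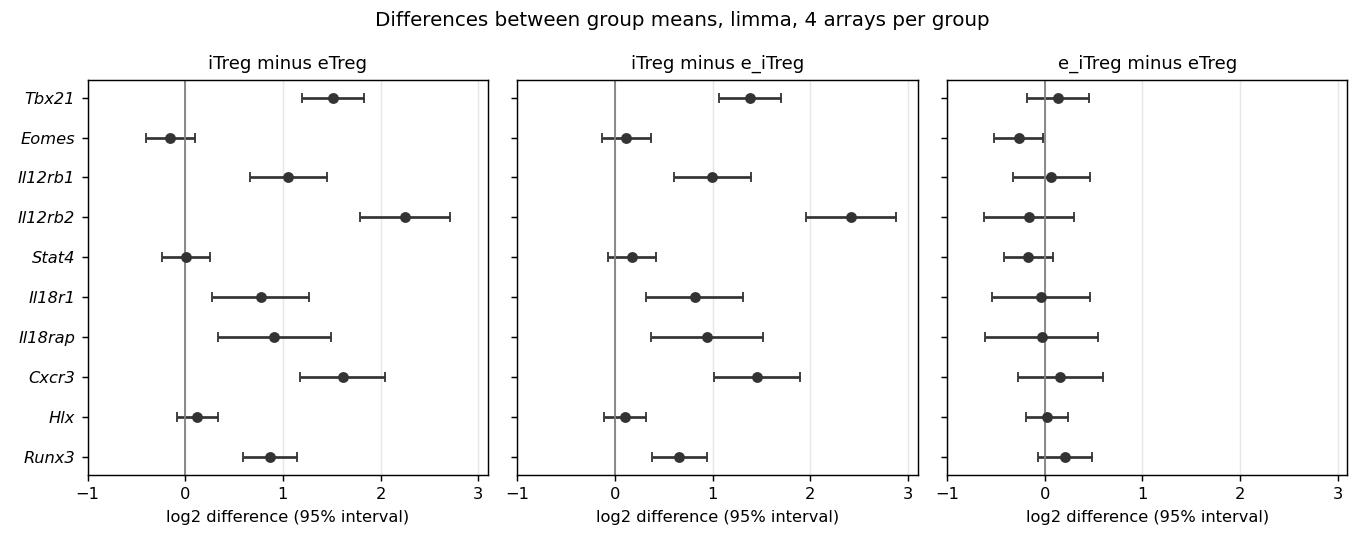
Log2 differences of the 10 genes with 95% intervals (limma, 4 arrays per group) for iTreg minus eTreg, iTreg minus e_iTreg and e_iTreg minus eTreg. Il12rb2 lies farthest from 0 in the first pair of panels, at 2.25 and 2.42, and in the third panel all 10 genes lie between -0.27 and 0.21.

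The remaining comparison, e_iTreg minus eTreg, asked whether IVIg moved the axis while endogenous Treg were present. Arrays of both groups had entered the choice of the 10 genes, so the comparison is not independent of that choice. None of the 10 genes passed limma's test, and 0% of all 23521 probe sets did, against 1649 probe sets (7.01%) and 1 member with an unadjusted p under 0.05. The smallest adjusted p over all probe sets was 0.223. The member was Eomes, with a difference of -0.27 (95% interval -0.52 to -0.01), with unadjusted p = 0.0398 and adjusted p = 0.704 by limma, and 0.506 to 0.985 under the alternatives. For Tbx21 the difference was 0.13 (-0.19 to 0.45, adjusted p = 0.827 by limma) and for Cxcr3 0.16 (-0.28 to 0.60). For Il12rb2 it was -0.16 (-0.62 to 0.30) and for Il12rb1 0.06 (-0.33 to 0.46). The IL-18 receptor had wider intervals, -0.54 to 0.46 for Il18r1 and -0.61 to 0.55 for Il18rap. In none of the 10 genes did the e_iTreg arrays lie apart from the eTreg arrays. Of all probe sets, 2.63% had every e_iTreg array above every eTreg array and 1.66% had every e_iTreg array below.

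Inside the groups, some genes of the axis moved together from array to array and others did not. With each group's mean removed, the levels of Il18r1 and Cxcr3 correlated at 0.92 over the 12 arrays, Il18r1 and Il18rap at 0.91 and Il18rap and Cxcr3 at 0.89. Tbx21 correlated with these 3 at 0.58 to 0.61, but with Il12rb1 at -0.01 and with Il12rb2 at -0.10. Il12rb1 and Il12rb2 correlated at 0.38. These values are descriptions of 12 arrays that share RNA amount, amplification and group, and they carry no test.

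The cell cycle genes moved with the first of these sets. The mean of 14 cell cycle genes such as Mki67 and Top2a was 9.59 to 10.37 in iTreg, 7.32 to 9.11 in e_iTreg and 7.23 to 9.04 in eTreg, and 13 of the 14 were called higher in iTreg in both comparisons. With group means removed, that mean correlated with Cxcr3 at 0.96, Il18rap at 0.93 and Il18r1 at 0.89, and 0.153%, 0.402% and 0.713% of 22166 genes had a higher value. It correlated with Tbx21 at 0.60 (6% of genes higher), with Runx3 at 0.56, with Il12rb1 at 0.27 and with Il12rb2, dim in 8 of the 12 arrays, at -0.41. The part of cell cycle activity in the differences of Cxcr3 and the IL-18 receptor was not tested.

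**Figure D3:**
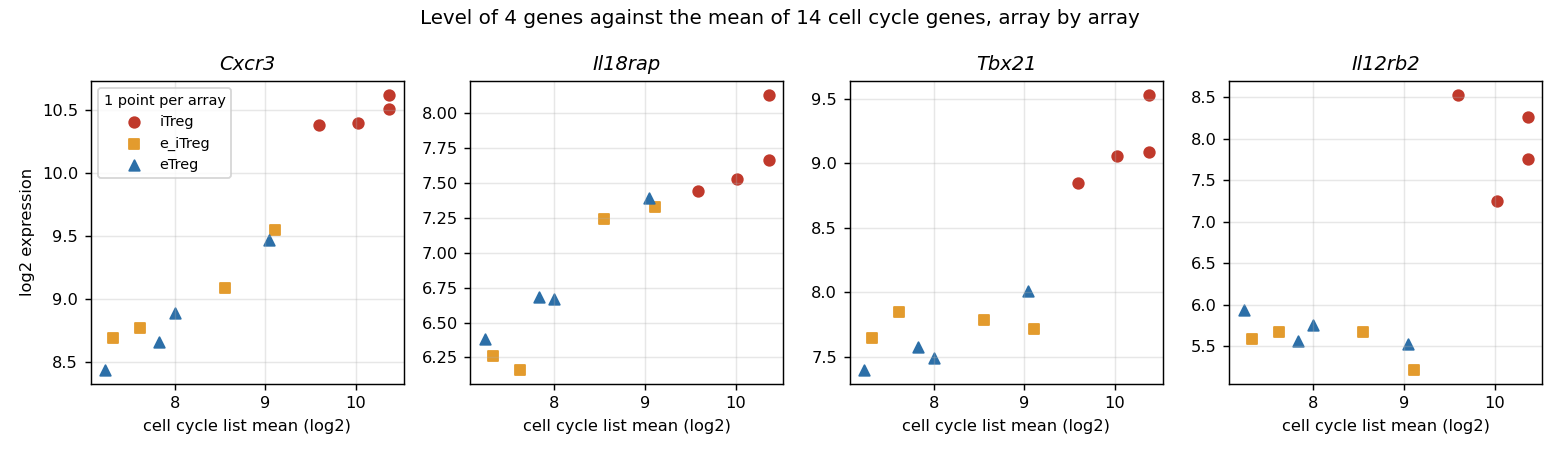
Log2 level of Cxcr3, Il18rap, Tbx21 and Il12rb2 against the mean log2 level of 14 cell cycle genes, 1 point per array; red circles are iTreg, orange squares e_iTreg and blue triangles eTreg. Cxcr3 and Il18rap climb along the horizontal axis within the e_iTreg and eTreg arrays as well as between groups. Il12rb2 lies at 5.21 to 5.94 in the 8 e_iTreg and eTreg arrays, below every array's median.

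Markers of other cells that carry these receptors were set beside the axis. The mean of 5 NK cell markers was 5.36 to 5.77 in iTreg, 5.34 to 5.66 in e_iTreg and 5.13 to 5.82 in eTreg, and 0 of the 5 were called in any comparison. The 2 CD8 genes had means of 7.06 to 8.23, 7.15 to 7.90 and 7.03 to 7.77 in those groups, and the natural killer T cell factor Zbtb16 was at 6.25 to 6.5, 6.43 to 6.96 and 6.32 to 6.77, all without a call. Groups overlapped in each of these lists. The NK marker mean lay below every array's median (6.43 to 6.67). Inside the groups, it nevertheless correlated with Cxcr3 at 0.80, with Tbx21 and Il18r1 at 0.79 and with Runx3 at 0.78. For these members 0.532% to 0.645% of 22175 genes had a higher value. The CD8 mean correlated with Il18r1 at 0.68 (2.2% of genes higher), Tbx21 at 0.65 (2.99%) and Cxcr3 at 0.62 (3.75%), but with Il12rb2 at -0.24. The B cell marker mean correlated with Cxcr3 at 0.82 (0.627% of genes higher) and Runx3 at 0.80 (0.956%). The myeloid marker mean was 6.63 to 8.12 in iTreg, 6.02 to 6.76 in e_iTreg and 6.15 to 6.79 in eTreg, and 1 of its 5 genes was called, Itgam, with 1.68 ± 0.29 in iTreg minus eTreg. The myeloid mean correlated with Il12rb1 at 0.81 (0.866% of genes higher) and Runx3 at 0.80 (0.952%). The Treg marker mean correlated with the called members at -0.63 (Runx3) to 0.11 (Il12rb2). The plasma cell marker mean was 6.33 to 8.65 in iTreg, 5.88 to 6.38 in e_iTreg and 5.71 to 6.18 in eTreg. It correlated with Il12rb1 at 0.73 (1.76%), Runx3 at 0.68 (2.57%) and Il12rb2 at 0.63 (3.73%). Log2 array values have no true zero, so no marker can be said to be absent, and the part of these cells in the results was not tested.

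The 3 arrays that stood apart on sex-linked genes, and the 3 lowest in B cell markers, were each left out in a fit of 9 arrays chosen after seeing the data. Without the first 3, the difference from eTreg was 1.59 for Tbx21, 2.02 for Il12rb2, 1.58 for Cxcr3, 0.81 for Il12rb1 and 0.71 for Runx3, all still past the threshold. Il18r1 (0.74) and Il18rap (0.96) were not. Without the 3 arrays low in B cell markers, Tbx21 (1.38), Il12rb2 (2.31), Cxcr3 (1.30) and Runx3 (0.69) stayed past the threshold against eTreg. Il12rb1 (0.83), Il18r1 (0.47) and Il18rap (0.66) did not, with 2 eTreg arrays left in that fit.

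The rest of the pathway was read from 8 lists with 80 measured genes besides the 10. Against eTreg 11 of the 80 rose in iTreg and 13 fell (5.36% and 4.63% of all probe sets). Against e_iTreg 10 rose and 10 fell (6.49% and 4.75% of all probe sets). In e_iTreg minus eTreg 0 of the 80 passed limma's test, with a smallest adjusted p of 0.704. The median difference of the 80 was 0.0048 in iTreg minus eTreg, beside -0.01 over all probe sets. Without the 3 arrays low in B cell markers 4 rose and 5 fell against eTreg, beside 211 and 189 of all 23521 probe sets. Without the 3 that stood apart on sex-linked genes 7 rose and 6 fell against e_iTreg, beside 747 and 323 probe sets. Of the genes called against eTreg with all arrays, Ifng (1.15, adjusted p = 0.0528 by limma) was not called in the first of these fits. Havcr2 (1.39, adjusted p = 0.0929 by limma) was not called there either. The others were Myd88, Irak3, Gadd45g, Jak1, Irgm1, Cbfb, Lef1, Sox4, Il1r1, Il27ra, Il6ra, Il6st and Stat5a.

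**Figure D4:**
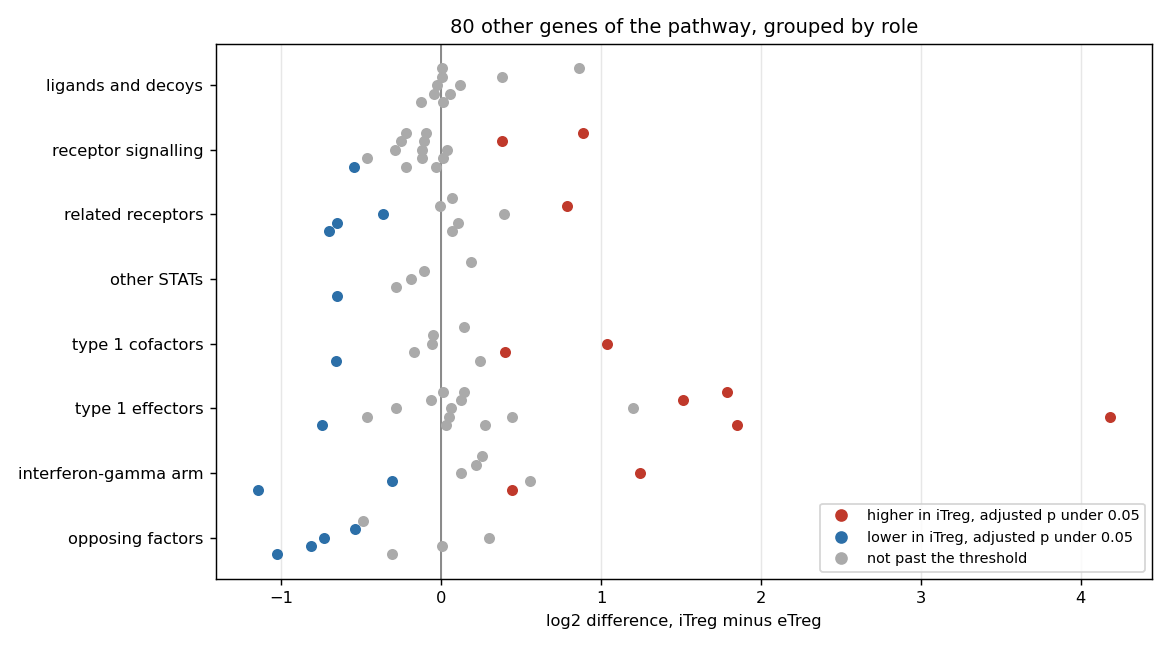
Log2 difference, iTreg minus eTreg, of 80 genes of the pathway in 8 lists by role, 1 point per gene; red marks genes higher and blue genes lower in iTreg at adjusted p under 0.05, grey the rest. The ligand list has no coloured point, and the list headed opposing factors has coloured points only to the left of 0.

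Of 10 genes for the subunits of IL-12, IL-18, IL-23 and IL-27, the IL-18 decoy Il18bp and the Cxcr3 chemokines, 0 were called in any of the 3 comparisons, and their median difference was 0.01 in iTreg minus eTreg. Il18 was at 6.01, 5.69, 5.97 and 7.76 in iTreg, 4.88, 6.22, 5.39 and 4.61 in e_iTreg and 5.74, 5.81, 5.72 and 4.71 in eTreg. Only iTreg replicate 4, the array with high myeloid and plasma cell markers, lay above every e_iTreg and eTreg array. The difference from eTreg was 0.86 ± 0.42 (adjusted p = 0.25 by limma). Il12a and Il12b, the 2 subunits of IL-12, differed by 0.06 ± 0.14 and -0.03 ± 0.13.

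Of 15 signalling genes below the receptors, 2 rose and 1 fell in iTreg against eTreg, with a list median of -0.12. Myd88, the adaptor of the IL-18 receptor, was at 10.09, 9.87, 9.89 and 10.13 in iTreg, 9.41, 9.73, 9.45 and 9.58 in e_iTreg and 9.60, 9.60, 9.61 and 9.67 in eTreg. The groups did not overlap, and the difference was 0.38 ± 0.10 (adjusted p = 0.0237 by limma) against eTreg and 0.46 ± 0.10 against e_iTreg. Irak3, a kinase-like inhibitor of Myd88 signalling, fell by 0.55 against eTreg (adjusted p = 0.0157 by limma) and by 0.58 against e_iTreg. Gadd45g, which IL-12 and IL-18 induce in type 1 cells, rose by 0.89 ± 0.21 against eTreg (adjusted p = 0.0149 by limma), and its 0.62 ± 0.21 against e_iTreg was not called (adjusted p = 0.0768 by limma). The receptor-bound kinases Jak2 and Tyk2 differed from eTreg by -0.12 ± 0.20 and -0.11 ± 0.13. Leaving out single arrays ended the call against eTreg for Myd88 in 5 of 12 fits (eTreg replicate 1, 2 or 3, iTreg replicate 1 or 4), and for Irak3 and Gadd45g without eTreg replicate 2 or iTreg replicate 1.

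The interferon-gamma arm moved in both directions. Ifng, the cytokine that T-bet is best known to induce, was at 9.16, 8.83, 8.18 and 8.01 in iTreg, 7.54, 7.52, 7.21 and 7.42 in e_iTreg and 7.54, 7.26, 7.45 and 6.97 in eTreg. Every iTreg array lay above the others, and replicates 1 and 2 were highest. It rose by 1.24 ± 0.21 against eTreg (2.37-fold, adjusted p = 0.00233 by limma) and by 1.12 ± 0.21 against e_iTreg. Ifngr2, the signalling chain of its receptor, was at 8.97, 9.21, 9.02 and 9.35 in iTreg, 10.49, 10.07, 10.02 and 10.62 in e_iTreg and 10.23, 10.07, 10.98 and 9.86 in eTreg. It fell by 1.14 against eTreg (SE 0.20, adjusted p = 0.00301 by limma) and by 1.16 against e_iTreg, again without overlap. Irgm1, an interferon-induced GTPase, rose by 0.44 ± 0.12 and 0.65 ± 0.12 in the same order, and its relative Igtp rose against e_iTreg (0.80 ± 0.19) but was not called against eTreg (0.55 ± 0.19, adjusted p = 0.0901 by limma). Jak1, a kinase bound to the interferon-gamma receptor, fell by 0.31 against eTreg, a call that held without 1 array only when that was eTreg replicate 1 or e_iTreg replicate 2 or 3. The Irgm1 call against eTreg was lost in 4 of those fits (eTreg replicate 3 or 4, iTreg replicate 2 or 4), and the Igtp call without e_iTreg replicate 3.

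The effector list split. Of 17 genes, 4 rose and 1 fell in iTreg against eTreg, with a list median of 0.13. Nkg7, a granule protein of cytotoxic and type 1 cells, was at 11.15, 11.16, 10.62 and 10.90 in iTreg, 9.04, 9.42, 9.39 and 9.02 in e_iTreg and 9.33, 9.28, 9.18 and 8.64 in eTreg. It rose by 1.85 ± 0.17 against eTreg and without overlap. Cxcr6, a homing receptor of type 1 and tissue cells, rose by 1.51 ± 0.23, the inhibitory receptor Havcr2 (Tim-3) by 1.79 ± 0.34 and the protease Gzmb by 4.18 ± 0.53. These 4 also rose against e_iTreg, Nkg7 by 1.74, Cxcr6 by 1.45, Havcr2 by 2.1 and Gzmb by 4.05. Cxcr6, Havcr2 and Gzmb were highest in iTreg replicate 4, the array with high plasma cell and myeloid markers. Without that array they rose by 1.37, 1.55 and 3.98 against eTreg. Ctsw, a cathepsin of cytotoxic cells, fell by 0.74 against eTreg and by 0.46 against e_iTreg. The chemokines Ccl5 and Ccl4 differed from eTreg by 0.05 ± 0.30 and 0.03, the killer-lectin receptor Klrg1 by 0.27 ± 0.40, and Il2rb, which T-bet induces in NK cells, by 0.06 ± 0.11. Ccl3 had a difference of 1.20 ± 0.42 that was not called (adjusted p = 0.0918 by limma). Fasl, the death ligand, fell by 0.62 against e_iTreg, and its difference of -0.47 from eTreg was not called (adjusted p = 0.062 by limma). The Ctsw call against e_iTreg was lost without e_iTreg replicate 4 or iTreg replicate 1 or 3.

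**Figure D5:**
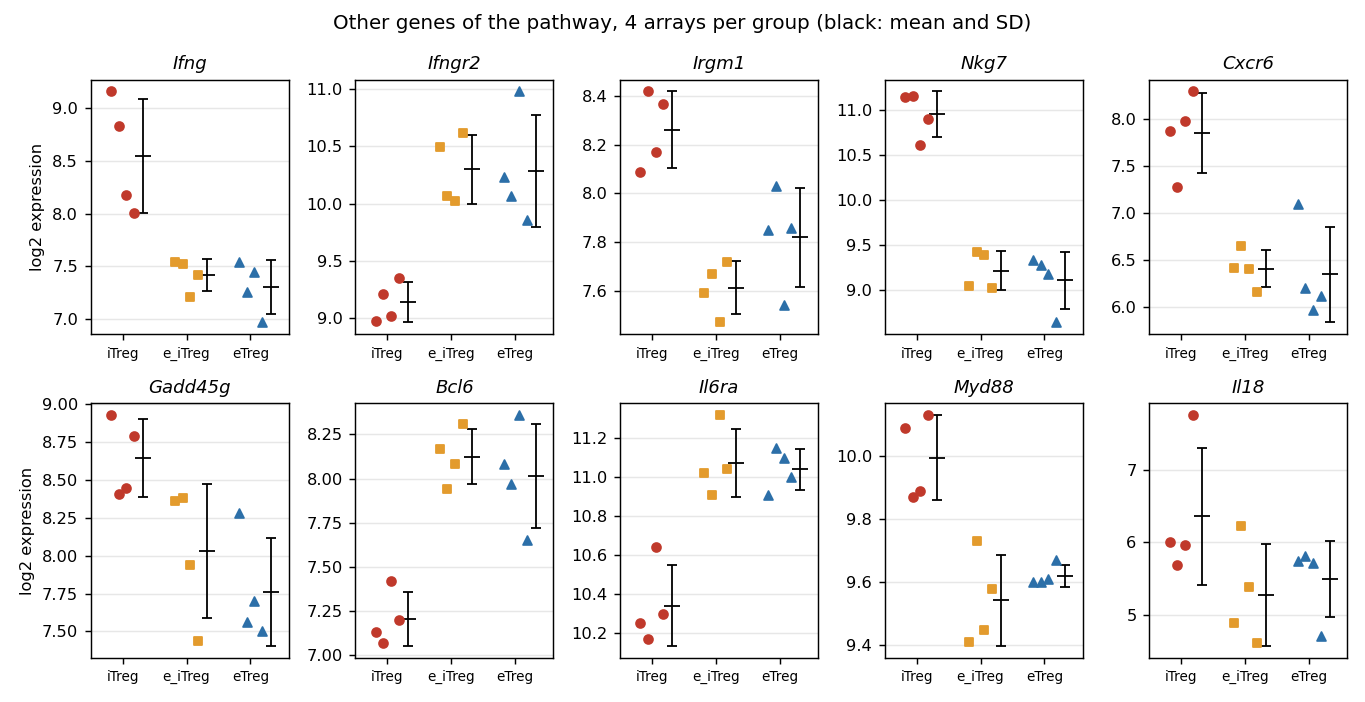
Log2 expression of 10 other genes of the pathway in each array, iTreg, e_iTreg and eTreg from left to right, with the mean and SD in black and a separate scale in each panel. Ifng, Irgm1, Nkg7, Cxcr6, Gadd45g and Myd88 have all iTreg points above the other 8, Ifngr2, Bcl6 and Il6ra have them below, and in Il18 iTreg replicate 4 stands alone at 7.76.

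The list headed opposing factors held 8 genes, and not all of them, Sox4 for example, are known to oppose the type 1 programme. Of the 8, 4 fell in iTreg against eTreg and 0 rose, with a list median of -0.51, and 3 fell against e_iTreg. Bcl6, the repressor that directs follicular helper T cells, was at 7.13, 7.07, 7.42 and 7.20 in iTreg, 8.17, 7.94, 8.08 and 8.31 in e_iTreg and 8.08, 7.97, 8.36 and 7.65 in eTreg. It fell by 0.81 against eTreg and by 0.92 against e_iTreg without overlap. Bach2, which holds T cells back from effector fates, fell by 1.02 and 1.05 in the same order. Lef1, a factor of naive T cells, and Sox4, an HMG-box factor, fell by 0.54 and 0.73 against eTreg, where a second probe set of Sox4 at -0.38 was not called. Foxo1, a factor of resting T cells, fell by 0.32 against e_iTreg, a call that held without 1 array only when that was eTreg replicate 1 or 3 or e_iTreg replicate 2, and its second probe set at -0.17 was not called. Gata3, the type 2 factor that T-bet antagonises, had a difference of 0.30 ± 0.13 from eTreg and was not called (adjusted p = 0.176 by limma), and its second probe set lay in the other direction at -0.12, also not called.

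Among 8 genes listed as type 1 cofactors, not all of them partners of T-bet or Runx3, 2 rose and 1 fell against eTreg. Prdm1 (Blimp-1), which promotes effector differentiation, was at 9.08, 8.77, 8.59 and 9.38 in iTreg, 8.07, 8.52, 7.91 and 7.54 in e_iTreg and 8.08, 7.83, 7.74 and 8 in eTreg. It rose by 1.04 against eTreg and by 0.94 against e_iTreg. Its highest value was in iTreg replicate 4, the array with high plasma cell and myeloid markers, without which Prdm1 rose by 0.89 and 0.8. The call against e_iTreg was lost without the 3 arrays that stood apart on sex-linked genes (0.64, adjusted p = 0.0539 by limma). Cbfb, the partner subunit of Runx3, rose by 0.40 against eTreg (adjusted p = 0.0373 by limma), a call lost without eTreg replicate 2, 3 or 4, e_iTreg replicate 1 or iTreg replicate 1 or 3. Kdm6b, a histone demethylase reported to act with T-bet, fell by 0.66 against eTreg and by 0.90 against e_iTreg, while a second probe set at -0.29 against eTreg was not called. The second probe set was not called against e_iTreg either, at -0.22. The call of the first against eTreg was lost without eTreg replicate 2 or 3 or iTreg replicate 2 or 4.

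Relatives of the receptors and of Stat4 showed what did not follow the IL-12 and IL-18 chains. Of 9 related receptors, 1 rose and 3 fell against eTreg. Il6ra and Il6st, the 2 chains of the IL-6 receptor, fell by 0.70 and 0.65, and Il27ra, a chain of the IL-27 receptor, by 0.37. Il6ra was at 10.25, 10.17, 10.64 and 10.30 in iTreg, 11.02, 10.91, 11.32 and 11.04 in e_iTreg and 10.91, 11.15, 11.10 and 11 in eTreg, without overlap. Both IL-6 receptor chains also fell against e_iTreg, Il6ra by 0.73 and Il6st by 0.63. The Il6st call was lost without eTreg replicate 3 or iTreg replicate 1 against eTreg and without e_iTreg replicate 3 or 4 or iTreg replicate 1 against e_iTreg, and that of Il27ra without eTreg replicate 2 or 4 or iTreg replicate 1, 2 or 4. Of 5 other STAT genes, Stat5a fell by 0.65 against eTreg (adjusted p = 0.0267 by limma), a call lost without eTreg replicate 2 or 3 or iTreg replicate 1, 2 or 3, and against e_iTreg its difference was -0.53 (adjusted p = 0.0625 by limma). The list held 0 genes that rose.

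In the mouse genome Il18r1 and Il18rap lie next to each other within a cluster of IL-1 receptor family genes. Of their neighbours there, Il1r1, the receptor of IL-1, rose by 0.79 ± 0.19 against eTreg (adjusted p = 0.0171 by limma). It was dim, at 5.39 to 5.64 in eTreg, below every array's median (6.43 to 6.67), and at 6.23, 5.65, 6.89 and 6.35 in iTreg. The call was lost without the 3 arrays that stood apart on sex-linked genes (0.75, adjusted p = 0.101 by limma). Against e_iTreg Il1r1 was at the threshold (0.62 ± 0.19, adjusted p = 0.05 by limma) and was not called in 11 of the 12 fits without 1 array. Il1rl2, the IL-36 receptor, differed from eTreg by 0.07 ± 0.19 and the sodium-proton exchanger gene Slc9a4 on the far side by -0.02 ± 0.14. Il1rl1 was not analysed here. Il12rb2 lies beside Il23r, whose difference was 0.39 ± 0.34 against eTreg (adjusted p = 0.605 by limma) and 0.01 ± 0.34 against e_iTreg. Serbp1, whose annotated span overlaps that of Il12rb2, differed by 0.06 ± 0.09.

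The genes whose pattern over the 12 arrays was most like that of Tbx21, out of 18651 ranked, were Aunip (Pearson's r 0.97), Niban2 (0.969), Hmmr (0.964), Caskin2 (0.964) and Rnh1 (0.963), with Spearman's rho of 0.832 to 0.909. Aunip and Hmmr act at the mitotic spindle. Those most like Il12rb2 were Canx (0.97), Clic4 (0.961), Lgals7 (0.96), Stt3a (0.958) and Oas3 (0.953), with rho of 0.49 to 0.853. Canx, a chaperone, and Stt3a, an oligosaccharyltransferase subunit, work on glycoproteins in the endoplasmic reticulum. The iTreg arrays form a cluster of their own in both genes, so these values hold the group difference, and with group means removed they were 0.592 to 0.772 for the first set and 0.319 to 0.773 for the second. They are descriptions with no test.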

How the data were processed

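RNA of sorted splenic Treg, 2 ng per sample, was amplified in 2 rounds and hybridised to 12 Affymetrix arrays, 4 per group, per the labels' protocols. The authors deposited 1 log2 value per probe set and array, made with oligo and RMA per the submitters' processing notes. RMA corrects background, normalizes between arrays and summarises probes. Tool versions are not given in the sources used here. Of the 41345 probe sets, the platform annotation gave no symbol to 16010, several to 1814 and exactly 1 to 23521, which cover 22180 genes. Of these last, 23328 were matched by gene number to the RefSeq table of GRCm38.p6, which was used for names and for which genes neighbour each other. No build was named for the arrays, so no probe set positions are given, and the coordinates printed are those of RefSeq promoter windows.

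Groups follow the series design. In R 4.3.3, limma 3.58.1 fitted 1 model over all 3 groups (lmFit, then eBayes, with 5.78 prior and 9 residual degrees of freedom) to the 23521 probe sets with 1 symbol. Tests were two-sided, with Benjamini-Hochberg adjustment over all of them, a threshold of 0.05 and no fold threshold. The median SE was 0.121, and 4 arrays per group limit the precision. The design calls the 4 samples of a group biological replicates but does not say whether each was 1 mouse or a pool, so a p-value reflects how these samples spread.

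The members and the gene lists were chosen with earlier results of these data known. Named were all members, up to 4 genes of each list with the smallest p in iTreg minus eTreg, every called gene of a list with 5 or fewer, receptor neighbours, defining markers and the 5 genes most correlated with Tbx21 and with Il12rb2. Ccl3, Ccl4, Ccl5, Klrg1, Il2rb, Il12a, Il12b, Jak2, Tyk2, Gata3, Slc9a4 and Serbp1 were added after their values were seen. Lists used 1 probe set per gene, that with the highest mean. Besides, 24 other settings of the fit were run, and 2 more (both fits of 9 arrays) were chosen after seeing the data. The fit was tested on simulated data with known changes.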

Additional observations from a re-analysis of the deposited data

How the results depend on the processing

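No alternative reversed the direction of a called member or a called pathway gene. Leaving out 1 array at a time gave 5 to 7 called members in iTreg minus eTreg and 5 to 7 in iTreg minus e_iTreg, 16 to 25 and 16 to 23 called pathway genes, and 1487 to 2437 and 1616 to 2852 called probe sets, against 2349 and 2643 with all arrays. The lowest counts over all probe sets came without eTreg replicate 3 (1487) or 2 (1547) in iTreg minus eTreg, and without e_iTreg replicate 4 (1616) or 3 (1747) or iTreg replicate 1 (1730) in iTreg minus e_iTreg. Pathway calls against eTreg were 24 with all arrays and fell to 16 without eTreg replicate 2 or iTreg replicate 1. A fold of at least 1.5 left 1089 and 1121 probe sets. The fit of 9 arrays without those that stood apart on sex-linked genes left 1164 and 1070 probe sets and 13 called pathway genes in iTreg minus e_iTreg, against 20. The fit of 9 arrays without those lowest in B cell markers left 400 and 1356 probe sets and, in iTreg minus eTreg, 4 called members and 9 called pathway genes. Both have fewer samples, and the cause was not otherwise tested. Over all alternatives, Tbx21, Il12rb2, Cxcr3 and Runx3 kept their call in iTreg minus eTreg wherever tested, and those 4 and Il12rb1 in iTreg minus e_iTreg. Il18r1 lost its call in 14 and 10 of 26 alternatives and Il18rap in 13 and 8. Il12rb2 was not tested above the median probe set, being dimmer. In e_iTreg minus eTreg 0 probe sets were called in any setting. With the replicate number as a block, 2225 and 2394 probe sets, 7 and 7 members and 24 and 21 pathway genes were called in the iTreg comparisons and 0 in e_iTreg minus eTreg. Deviations of same-numbered arrays correlated at -0.04 to 0.121 in iTreg minus eTreg and -0.152 to 0.044 in iTreg minus e_iTreg. In e_iTreg minus eTreg they correlated at 0.067 to 0.238, all above 0. Arrays of unlike number were not compared, so these values cannot show whether the numbers pair the samples.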
